A study of Mus musculus with 4 samples.

Results

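The genes described here are 36 genes of the endoplasmic reticulum (ER) folding machinery and of the unfolded protein response, taken by symbol from the 32285 genes of the deposited matrices. All 36 were present and had counts. They were followed across the nucleus classes of single-nucleus RNA libraries from mouse paraventricular nucleus (PVN) punches, a hypothalamic nucleus that controls pituitary hormone release, stress responses and feeding. Nuclei came from male C57Bl6 mice aged 10 weeks, with 5 micropunched PVNs pooled in each library. There were 2 libraries at zeitgeber time (ZT) 8, in the light phase, and 2 at ZT20, in the dark phase. No mutation, transgene or drug is given for either group, and the time of collection is the only difference that the labels state. Nothing in the labels tells if both libraries of a time came from different mice or days, so p-values measure only the spread between libraries, and time cannot be told apart from a preparation made at that time.

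Proteins that are secreted or sit in membranes fold inside the ER with the help of chaperones, disulfide isomerases and lectin chaperones that hold glycoproteins. When folding falls behind, the membrane sensors ATF6, IRE1 (gene Ern1) and PERK (gene Eif2ak3) start the unfolded protein response. ATF6 and the IRE1 product XBP1 raise chaperones and degradation factors through promoter elements, while PERK slows translation and raises ATF4, CHOP (gene Ddit3) and TRIB3. Neurons of the PVN that make peptide hormones carry a large secretory load.

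The 4 libraries held 57970649 to 69223344 unique molecular identifiers (UMIs), and 6053 to 8667 nuclei each were kept. Clusters were named from marker genes, and "-like" marks such names. Neuron-like nuclei numbered 2390 to 2860 per library. The label PVN covered tissue beyond that nucleus: Sim1-positive PVN-like neurons were 19 and 25 nuclei in the ZT8 libraries and 203 and 177 in the ZT20 libraries, while thalamic-like neurons were 1280 and 1391 against 800 and 750. The neuron-like class therefore mixed different neurons at the 2 times, and its calls by time were repeated with equal numbers of nuclei per neuron cluster. The class by time terms, the counts by promoter element and the levels between classes in neuron-like nuclei were not. Mitochondrially encoded RNA was 0.100 and 0.103% of UMIs at ZT8 and 0.180 and 0.184% at ZT20. Libraries shared 9 to 22 cell barcodes per pair. Levels are in CPM, in which a gene's UMIs are scaled to the total UMIs of the class in that library.

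Most chaperone and disulfide isomerase genes were higher at ZT20 in neuron-like nuclei taken whole, while sensor and transcription factor genes went in both directions there. Of the 36 genes, 21 were called higher and 7 lower (edgeR adjusted p under 0.05). Among all 19584 genes tested in these nuclei, 21.9% were called higher and 21.5% lower. The median log2 change of the 36 genes was 0.20, against 0.0086 for all genes. In all, 6 of the 36 rose by over 1.5-fold, where 6.06% of all genes did. By role, 9 of 11 lumenal chaperones and cofactors rose and 1 fell, both lectin chaperones rose, and 4 of 7 oxidoreductase and prolyl isomerase genes rose and 2 fell. Of 8 degradation genes 3 rose and 1 fell, and of 7 sensor and transcription factor genes 2 rose and 3 fell. With equal nuclei per neuron cluster, 6 of 11 lumenal chaperones and cofactors rose and 1 fell, and both lectin chaperones rose. Then 5 of 7 oxidoreductase and prolyl isomerase genes and 3 of 8 degradation genes rose and 0 fell. Of 6 sensor and transcription factor genes tested, 1 rose and 0 fell. In that fit 11.2% of all genes were called higher and 9.37% lower. Leaving out each library in turn, 18 of the 21 higher and 4 of the 7 lower genes were called in every fit. The others were Ern1, Sel1l, Selenos, Atf4, Atf6 and Ero1l, with log2 changes from -0.14 to 0.14 where the call was lost.

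Hspa5 encodes BiP, the main ER chaperone of the HSP70 family and the protein that keeps the sensors silent. In neuron-like nuclei it stood at 76.0 and 75.4 CPM in the ZT8 libraries and at 149 and 146 CPM in the ZT20 libraries. Both ZT20 libraries lay above both ZT8 libraries, and the log2 change was 0.91 ± 0.03 (SE; edgeR adjusted p = 3.8e-17). Hsp90b1 encodes GRP94, the HSP90 of the ER. It measured 128 and 130 CPM at ZT8 and 200.1 and 204 CPM at ZT20, again without overlap (log2 change 0.59 ± 0.02, edgeR adjusted p = 7.3e-15). Sdf2l1, whose protein works with BiP and its J-protein partners, was rare, with 52, 60, 161 and 184 UMIs in the ZT8 and then the ZT20 libraries. Its levels were 1.42 and 1.41 against 3.98 and 4.71 CPM, the widest separation of the 36 genes in these nuclei (log2 change 1.57 ± 0.16, edgeR adjusted p = 2.1e-08). Its paralog Sdf2 did not pass the test, with a log2 change of 0.06 ± 0.05.

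**Figure D1:**
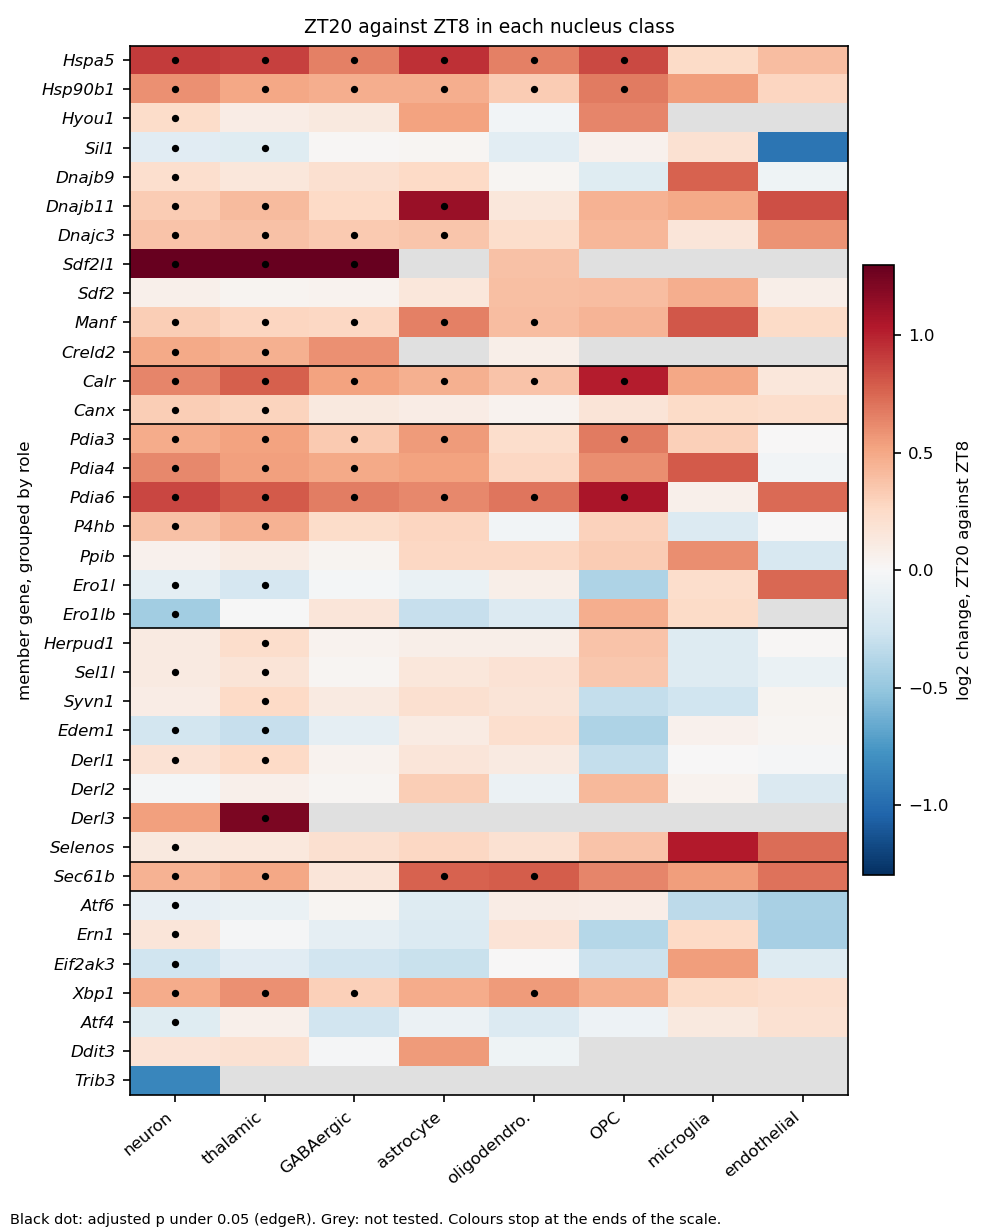
Log2 change of each gene between ZT20 and ZT8 (colour) in 8 nucleus classes, with genes grouped by role from top to bottom: lumenal chaperones and cofactors, lectin chaperones, oxidoreductases and prolyl isomerase, degradation genes, the translocon gene Sec61b, and sensors with transcription factors. Black dots mark an adjusted p under 0.05 and grey marks genes not tested. Hspa5, Hsp90b1, Calr and Pdia6 carry a dot in each of the first 6 columns, and the Atf6, Ern1, Eif2ak3 and Atf4 rows carry a dot in the first column alone. Colours stop at the ends of the scale.

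The J-proteins Dnajc3, Dnajb11 and Dnajb9, which hand substrates to BiP, were higher at ZT20 in neuron-like nuclei. Dnajc3 (P58IPK) had a log2 change of 0.38 ± 0.04, Dnajb11 (ERdj3) of 0.33 ± 0.05 and Dnajb9 (ERdj4) of 0.22 ± 0.05, and all 3 were called. Dnajb9 was not called with equal nuclei per neuron cluster (0.18 ± 0.07, edgeR adjusted p = 0.0512). Dnajc10, a reductase with a J-domain read with a further list below, went the other way in neuron-like nuclei (-0.12 ± 0.03, edgeR adjusted p = 0.0017). It was also called lower with equal nuclei per neuron cluster (-0.17, edgeR adjusted p = 0.00089). The nucleotide exchange factors of BiP went separate ways. Hyou1 (GRP170) rose by 0.24 ± 0.05, and Sil1 fell from 87.9 and 94.3 CPM to 85.9 and 84.6 CPM, a log2 change of -0.15 ± 0.03 (edgeR adjusted p = 0.00062). The 2 Sil1 groups did not overlap, but by a narrow margin. Manf, a BiP-binding protein that cells can release as a neurotrophic factor, rose by 0.32 ± 0.03, and Creld2, an ER protein with disulfide isomerase activity, by 0.49 ± 0.10 on the log2 scale. Neither Hyou1 (0.15 ± 0.07, edgeR adjusted p = 0.123) nor Creld2 (0.33 ± 0.13, 0.0709) was called with equal nuclei per neuron cluster.

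Calr and Canx encode calreticulin and calnexin, the lectin chaperones that retain glycoproteins until they are folded. Calr measured 73.1 and 75.9 CPM at ZT8 and 119.6 and 121 CPM at ZT20 in neuron-like nuclei, without overlap (log2 change 0.64 ± 0.03, edgeR adjusted p = 3.9e-14). Canx measured 149 and 151 CPM against 195 and 193 CPM (log2 change 0.32 ± 0.02). Among the disulfide isomerases, Pdia6 stood at 39.9 and 39.3 CPM at ZT8 and 74.5 and 75.6 CPM at ZT20 (log2 change 0.87 ± 0.04, edgeR adjusted p = 5.6e-15). The 2 groups of Pdia6 values did not overlap. Pdia4 (ERp72), Pdia3 (ERp57, the partner of the lectin chaperones) and P4hb (PDI itself) had log2 changes of 0.62 ± 0.07, 0.49 ± 0.03 and 0.38 ± 0.05, all called.

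The oxidases that recharge these isomerases were lower at ZT20 in neuron-like nuclei taken whole. Ero1lb, the ERO1 paralog best known from insulin-making cells, measured 79.1 and 75.3 CPM at ZT8 and 57.7 and 59.4 CPM at ZT20 (log2 change -0.45 ± 0.03, edgeR adjusted p = 2.3e-10). Ero1l, the widely expressed paralog, had a log2 change of -0.13 ± 0.04 and was called. Neither was called with equal nuclei per neuron cluster: the log2 change of Ero1lb was then -0.08 ± 0.04 (edgeR adjusted p = 0.183) and that of Ero1l -0.12 ± 0.05 (0.0837). In thalamic-like neurons alone, which held more Ero1lb (in CPM) than the other tested classes, Ero1lb had a log2 change of -0.00 ± 0.04, while Ero1l was called lower there with equal nuclei per cluster (-0.23 ± 0.06, edgeR adjusted p = 0.0165). Ppib, the ER prolyl isomerase cyclophilin B, changed by 0.05 ± 0.03 and was not called. Sec61b, a subunit of the channel through which new proteins enter the ER, rose from 8.07 and 7.35 to 11.3 and 10.6 CPM (log2 change 0.46 ± 0.08).

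The sensor genes did not follow the chaperones. Atf6 had a log2 change of -0.11 ± 0.03 and Eif2ak3 of -0.26 ± 0.05, both called lower, and Ern1 of 0.16 ± 0.05, called higher. Atf6 levels overlapped between the times, at 87.2 and 83.6 CPM against 80.4 and 84.3 CPM. With equal nuclei per neuron cluster none of these 3 calls remained, and the log2 changes became -0.08 ± 0.04, -0.11 ± 0.07 and -0.01 ± 0.06, so that of Ern1 changed sign. Xbp1, which IRE1 activates by splicing its mRNA, rose from 24.8 and 26.0 CPM to 37.96 and 36.01 CPM, without overlap (log2 change 0.49 ± 0.05, edgeR adjusted p = 1.4e-08). The counts do not separate spliced from unspliced Xbp1. Atf4, the transcription factor of the PERK arm, had a log2 change of -0.16 ± 0.05 (called), which was -0.05 ± 0.06 (not called) with equal nuclei per cluster. In GABAergic-like neurons Atf4 had a log2 change of -0.25 ± 0.10 and was not called, and with equal nuclei per cluster it was called lower, at -0.45 ± 0.14 (edgeR adjusted p = 0.0406). Its targets Ddit3 (CHOP) and Trib3 were not called, with log2 changes of 0.17 ± 0.08 and -0.85 ± 0.35; Trib3 rested on 12 to 28 UMIs per library.

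Changes of degradation genes were small in neuron-like nuclei. Derl1, a membrane protein of the channel that exports misfolded proteins, had a log2 change of 0.19 ± 0.04, Selenos, which brings the extraction ATPase to the membrane, of 0.13 ± 0.05, and Sel1l, the adaptor of the HRD1 ubiquitin ligase, of 0.12 ± 0.03. These 3 were called higher. Sel1l kept its call with equal nuclei per cluster, and Derl1 (0.15 ± 0.06, edgeR adjusted p = 0.0588) and Selenos (0.16 ± 0.06, 0.0598) did not. Edem1, a lectin that picks glycoproteins for disposal, was called lower in neuron-like nuclei at -0.24 ± 0.06, and not with equal nuclei per cluster (-0.14 ± 0.08, edgeR adjusted p = 0.234). Herpud1, an ER stress scaffold of the same ligase, Syvn1 (HRD1 itself), Derl2 and Derl3 were not called, with log2 changes of 0.11 ± 0.05, 0.10 ± 0.05, -0.02 ± 0.06 and 0.53 ± 0.28.

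The calls in neuron-like nuclei were repeated with the same number of nuclei drawn from every library for each neuron cluster. Then 18 of 35 genes tested were called higher and 1 lower, where 11.2% and 9.37% of all genes were. Hspa5 had a log2 change of 0.79 ± 0.03, Pdia6 of 0.73 ± 0.05, Calr of 0.65 ± 0.04 and Hsp90b1 of 0.49 ± 0.03, and these were called, as was Sdf2l1. Herpud1 (0.20 ± 0.06), Syvn1 (0.26 ± 0.06) and Ppib (0.12 ± 0.04) were called here and not in all neuron-like nuclei. Of the 21 higher genes, Hyou1, Dnajb9, Creld2, Derl1, Selenos and Ern1 were no longer called. The gene still called lower was Sil1, at -0.12 ± 0.04. Cytosolic ribosomal protein RNA moved in the same direction as the chaperones: the summed level of 80 such genes in neuron-like nuclei was 3385 and 3485 CPM at ZT8 and 4887 and 4908 CPM at ZT20, and 77 of them were higher in both ZT20 libraries. All 13 mitochondrially encoded genes were higher too, at 674 and 683 CPM in sum against 1254 and 1209 CPM. The part of either in the rise of the chaperone genes was not tested.

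Thalamic-like neurons, the largest named neuron class, gave a test within 1 named class. It joined several clusters whose shares differed by time. Cluster 5 held 353 ZT8 and 92 ZT20 nuclei, and cluster 24 held 80 and 116. In the thalamic-like class, 20 of 35 genes were called higher and 3 lower, where 10.9% and 9.0% of all genes were. Hspa5 measured 60.3 and 59.4 CPM at ZT8 and 108 and 111 CPM at ZT20 (log2 change 0.89 ± 0.04), and Calr 64.8 and 66.9 against 110 and 113 CPM (0.78 ± 0.04). Both genes were separated by time without overlap. Derl3, a derlin of secretory cells, Syvn1 and Herpud1 were called higher here, at 1.23 ± 0.36, 0.26 ± 0.07 and 0.22 ± 0.07, although each of the 3 calls ended when 1 or more single libraries were left out. Derl3 rested on 12 to 28 UMIs per library, and its log2 change was 0.73 without ZT8 replicate 2 and 0.82 without ZT20 replicate 2, neither called. Edem1 (-0.30 ± 0.09), Ero1l (-0.22 ± 0.06) and Sil1 (-0.16 ± 0.04) were called lower, and each lost its call in at least 1 fit without a library. In all, 13 of the 20 higher genes were called in every such fit. With equal nuclei per cluster 17 of 35 were called higher and 2 lower, where 8.26% and 5.87% of all genes were.

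In GABAergic-like neurons 10 of 34 genes were called higher and 0 lower, where 9.4% and 7.84% of all genes were; 2 genes had an unadjusted p under 0.05 in the lower direction, and DESeq2 called 5 higher and 0 lower. Hspa5 there measured 104 and 114 CPM at ZT8 and 179.7 and 164 CPM at ZT20 (log2 change 0.65 ± 0.06), and Pdia6 56.1 and 55.1 against 86.6 and 90.2 CPM (0.67 ± 0.07). Neither overlapped between the times. Hspa5, Hsp90b1, Calr, Pdia3 and Pdia6 were called in every fit without 1 library, and Pdia4, Dnajc3, Sdf2l1, Manf and Xbp1 were not. With equal nuclei per cluster 8 of 34 were called higher and 1 lower, where 2.89% and 1.98% of all genes were. Markers of other neurons moved with time in this class: the summed level of 9 PVN markers was 204 and 229 CPM at ZT8 and 478 and 454 CPM at ZT20, and that of 5 suprachiasmatic markers 7.03 and 12.6 against 27.0 and 30.0 CPM. In thalamic-like neurons the PVN markers stood at 548 and 542 against 723 and 696 CPM, and the suprachiasmatic markers at 1.39 and 2.28 against 12.0 and 11.2 CPM. The summed level of 10 peptide hormone genes in thalamic-like neurons was 20.8 and 24.9 CPM at ZT8 and 156 and 142 CPM at ZT20. In GABAergic-like neurons it was 110 and 104 against 327 and 301 CPM. The part of these markers and peptide genes in the results was not tested.

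The same genes were examined in single neuron clusters that held at least 50 nuclei in every library, 10 in all, of which 6 were thalamic-like and 2 GABAergic-like. Hspa5, Calr, Pdia6, Hsp90b1 and Pdia3 had positive log2 changes in all 10, and the first 3 were called in 7 each. The share of all genes called higher was 3.96, 0.778, 1.12, 1.19, 1.31, 1.59, 1.11, 1.38, 0.291 and 0.231% in clusters 0, 1, 2, 3, 4, 6, 8, 13, 14 and 19. For Hspa5 the log2 change ran from 0.37 to 0.88 with a median of 0.79, and in each of the 10 clusters both ZT20 libraries exceeded both ZT8 libraries. Xbp1 was positive in all 10 clusters and called in 2. Atf4 and Atf6 were positive in 3 of 10 each, and edgeR called neither in any cluster. DESeq2 was not run on single clusters. Neurons without a type name, tested as a class of their own, had 11 of 34 genes called higher and 0 lower (1 with an unadjusted p under 0.05), where 6.87% and 5.89% of all genes were.

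**Figure D2:**
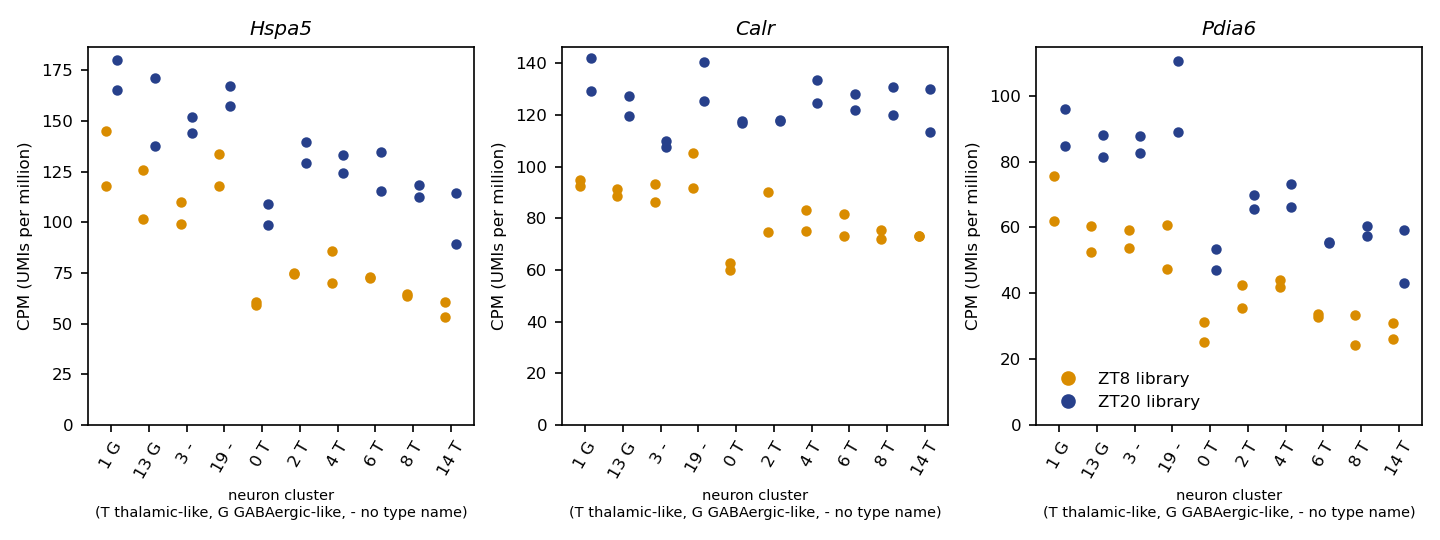
Level of Hspa5, Calr and Pdia6 in CPM (vertical axes from 0) in 10 neuron clusters with at least 50 nuclei in each library; each point is 1 library, orange for ZT8 and blue for ZT20. In every cluster and for all 3 genes the blue points lie above the orange ones, and at ZT8 the GABAergic-like clusters stand at 102 to 145 CPM of Hspa5 and the thalamic-like ones at 53.1 to 85.7 CPM.

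The promoters of these genes are known for the ER stress response element (ERSE), a CCAAT box and a CCACG box 9 bases apart that ATF6 binds together with NF-Y. The RefSeq windows (GRCm38.p6) from 250 bases before to 50 bases after each start were searched on both strands for ERSE (CCAAT, any 9 bases, then CCACG), ERSE-II (ATTGG, any base, then CCACG), the XBP1 element UPRE (TGACGTGG) and the ATF4 element CARE (TGATGNAA). Windows were found for 31 of the 36 genes; Manf, Hyou1, Atf6, Derl1 and Sil1 had no entry. ERSE was in 10 of the 31 windows and in 0.137% of the windows of 27025 genes, and ERSE-II was in 2 (Dnajb11 and Herpud1) and in 0.0444%. UPRE was in 0 of 31 and in 0.714% of all, and CARE was in 2 (Herpud1 and Trib3) and in 4.51%. The ERSE sites are shown because Hspa5, Hsp90b1, Calr and Pdia6, which rose in the largest number of classes described here, each have one, and so does Ero1lb, which did not rise. Each is printed 5′ to 3′ on the strand of the gene with 11 bases on each side, and capitals mark the fixed letters of the element, which reads CGTGG then ATTGG where it lies in antisense. The Hspa5 site is printed with 5 bases on each side, because a GENCODE transcript of that gene starts further upstream and has the site in its untranslated region.
Hspa5, chr2:34772020-34772048, plus strand: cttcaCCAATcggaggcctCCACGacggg
Hsp90b1, chr10:86705627-86705667, minus strand: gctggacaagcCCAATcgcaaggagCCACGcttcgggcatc
Hsp90b1, chr10:86705522-86705562, minus strand: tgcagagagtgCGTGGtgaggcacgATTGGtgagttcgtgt
Calr, chr8:84847064-84847104, minus strand: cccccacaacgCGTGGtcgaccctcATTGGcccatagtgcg
Pdia6, chr12:17266480-17266520, plus strand: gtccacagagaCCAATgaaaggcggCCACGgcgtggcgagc
Canx, chr11:50325789-50325829, minus strand: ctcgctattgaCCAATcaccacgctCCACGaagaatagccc
Dnajc3, chr14:118937816-118937856, plus strand: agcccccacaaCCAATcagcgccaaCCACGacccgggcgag
Creld2, chr15:88819509-88819549, plus strand: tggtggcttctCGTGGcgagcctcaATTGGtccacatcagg
Ero1lb, chr13:12565671-12565711, plus strand: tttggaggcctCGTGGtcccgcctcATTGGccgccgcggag
The other ERSE genes were Syvn1 and Derl3. The 9 bases between the boxes differed from gene to gene, and Hsp90b1 held the element on both strands.

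Of the 12 genes with ERSE or ERSE-II in the window, 8 were called higher and 1 (Ero1lb) lower at ZT20 in neuron-like nuclei, with a median log2 change of 0.43. Of the 19 genes with a window and neither element, 10 were called higher and 4 lower, with a median of 0.13. In thalamic-like neurons the counts were 11 of 12 higher and 0 lower with the element, and 7 higher and 2 lower of 18 tested without it, with medians of 0.44 and 0.14. The gene with the element that was not called there was Ero1lb. With equal nuclei per cluster Creld2, Derl3 and Herpud1 were no longer called in thalamic-like neurons (edgeR adjusted p = 0.321, 0.0974 and 0.0584). The higher genes without the element kept their calls. DESeq2, run on all thalamic-like nuclei, did not call Creld2, Derl3, Herpud1 or Syvn1 with the element, nor Pdia4, Sec61b or Sel1l without it. Sdf2l1, the gene with the highest log2 change, had neither element as spelled, and nor did Pdia3, Pdia4, P4hb, Sec61b or Xbp1, all of which rose. In astrocyte-like nuclei 6 of 10 tested genes with the element and 2 of 17 without it were called higher, with medians of 0.41 and 0.27. In oligodendrocyte-like nuclei 4 of 11 and 2 of 18 were, and the medians of 0.17 and 0.19 stood in the other order. Of all genes, 21.9%, 10.9%, 4.1% and 5.63% were called higher in neuron-like, thalamic-like, astrocyte-like and oligodendrocyte-like nuclei. The shares called lower were 21.5%, 9.0%, 2.58% and 4.95%. The 2 sets were compared by counts and medians alone, and a match of letters does not show binding.

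**Figure D3:**
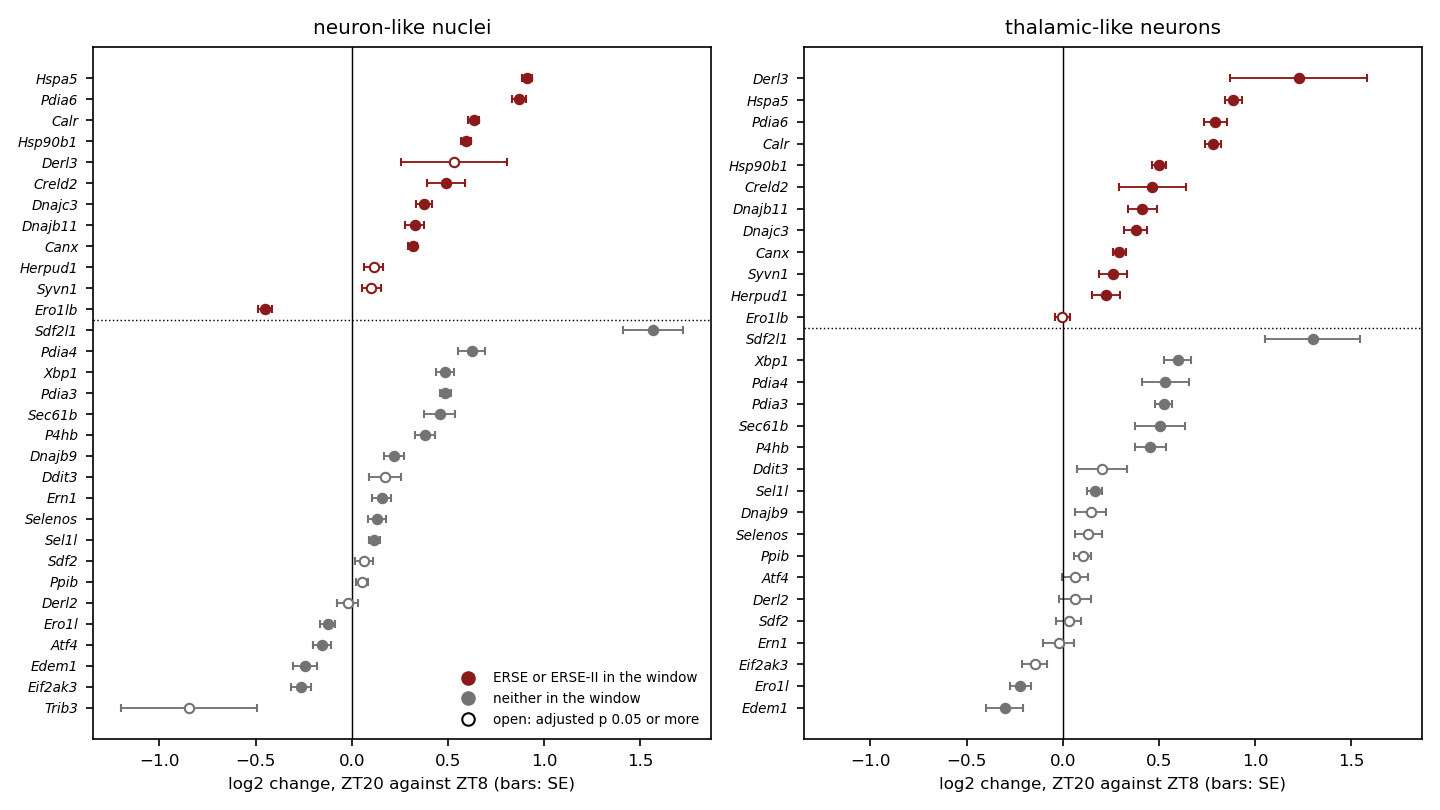
Log2 change between ZT20 and ZT8 (horizontal axis, bars show the SE) of 31 genes with a RefSeq promoter window, in neuron-like nuclei (left) and of the 30 tested in thalamic-like neurons (right); red marks genes with ERSE or ERSE-II in the window, grey those with neither, and open symbols an adjusted p of 0.05 or more. In thalamic-like neurons 11 of 12 red genes are filled and lie right of 0, with Ero1lb at 0, and grey genes lie on both sides. The red genes Creld2, Derl3 and Herpud1 were not called there with equal nuclei per cluster.

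Several chaperone genes were also higher at ZT20 in astrocyte-like, oligodendrocyte-like and OPC-like nuclei. In astrocyte-like nuclei 9 of 32 genes tested were called higher and 0 lower, where 4.1% and 2.58% of all genes were; no gene had an unadjusted p under 0.05 in the lower direction, and DESeq2 called 3 higher (Hspa5, Pdia3 and Hsp90b1) and 0 lower. Hspa5 measured 127 and 101 CPM at ZT8 and 195 and 232 CPM at ZT20, without overlap (log2 change 0.95 ± 0.10, edgeR adjusted p = 9.9e-12). Dnajb11 measured 21.0 and 17.5 CPM against 40.9 and 39.8 CPM (log2 change 1.12 ± 0.22, edgeR adjusted p = 0.00012), above its change in neuron-like nuclei. Sec61b, Manf, Pdia6, Pdia3, Hsp90b1, Calr and Dnajc3 were also called, with log2 changes from 0.36 to 0.76. Hspa5, Hsp90b1, Pdia3, Dnajb11 and Manf were called in every fit without 1 library, and Calr, Pdia6, Dnajc3 and Sec61b lost the call in at least 1. All 9 genes called in astrocyte-like nuclei were called higher in neuron-like nuclei too.

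In oligodendrocyte-like nuclei 7 of 34 genes were called higher and 0 lower, where 5.63% and 4.95% of all genes were; 0 had an unadjusted p under 0.05 in the lower direction, and DESeq2 called 2 higher (Hspa5 and Pdia6) and 0 lower. Hspa5 measured 94.6 and 95.5 CPM at ZT8 and 146 and 149 CPM at ZT20, a tight separation (log2 change 0.66 ± 0.10). Sec61b (0.78 ± 0.21), Pdia6 (0.69 ± 0.14), Xbp1 (0.56 ± 0.17), Manf (0.40 ± 0.12), Calr (0.37 ± 0.10) and Hsp90b1 (0.33 ± 0.07) were called as well, of which Pdia6 and Hsp90b1, with Hspa5, were called in every fit without 1 library. In nuclei like oligodendrocyte precursors (OPC-like) 5 of 31 genes were called higher and 0 lower, where 1.03% and 0.524% of all genes were; 0 had an unadjusted p under 0.05 in the lower direction, and DESeq2 called 1 higher (Calr). Calr measured 114 and 133 CPM at ZT8 and 229 and 263 CPM at ZT20 (log2 change 1.02 ± 0.14), and Pdia6 51.6 and 68.3 against 134 and 114 CPM (1.06 ± 0.18). Neither gene overlapped between the times. Pdia3 (0.67 ± 0.16), also called, lost the call in 3 of 4 fits without 1 library. Hspa5, Hsp90b1, Calr and Pdia6 were the 4 genes called higher in thalamic-like, GABAergic-like, astrocyte-like, oligodendrocyte-like and OPC-like nuclei alike.

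Fewer nuclei stood behind the remaining classes. In microglia-like nuclei, 123 to 134 per library, 0 of 30 genes were called by edgeR or by DESeq2, where 0.635% of all genes were called higher and 0.331% lower, and 5 genes had an unadjusted p under 0.05, all higher. Hsp90b1 came nearest, at 259 and 248 CPM against 345 and 393 CPM (log2 change 0.54 ± 0.15, edgeR adjusted p = 0.0654), while Hspa5 overlapped between the times at 131 and 179 against 199 and 172 CPM (log2 change 0.25 ± 0.20). In endothelial-like nuclei 0 of 29 genes were called by either tool, where 1.3% and 2.45% of all genes were called higher and lower, and 4 genes were higher and 1 lower at an unadjusted p under 0.05. The 95% interval of the Hspa5 log2 change ran from -0.15 to 0.65 in microglia-like and from -0.08 to 0.89 in endothelial-like nuclei. Both intervals held 0 and ended below the 0.91 of all neuron-like nuclei. The 0.79 of neuron-like nuclei with equal nuclei per cluster lay inside the endothelial-like interval and above the microglia-like one. The difference between these classes and neurons was not tested.

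**Figure D4:**
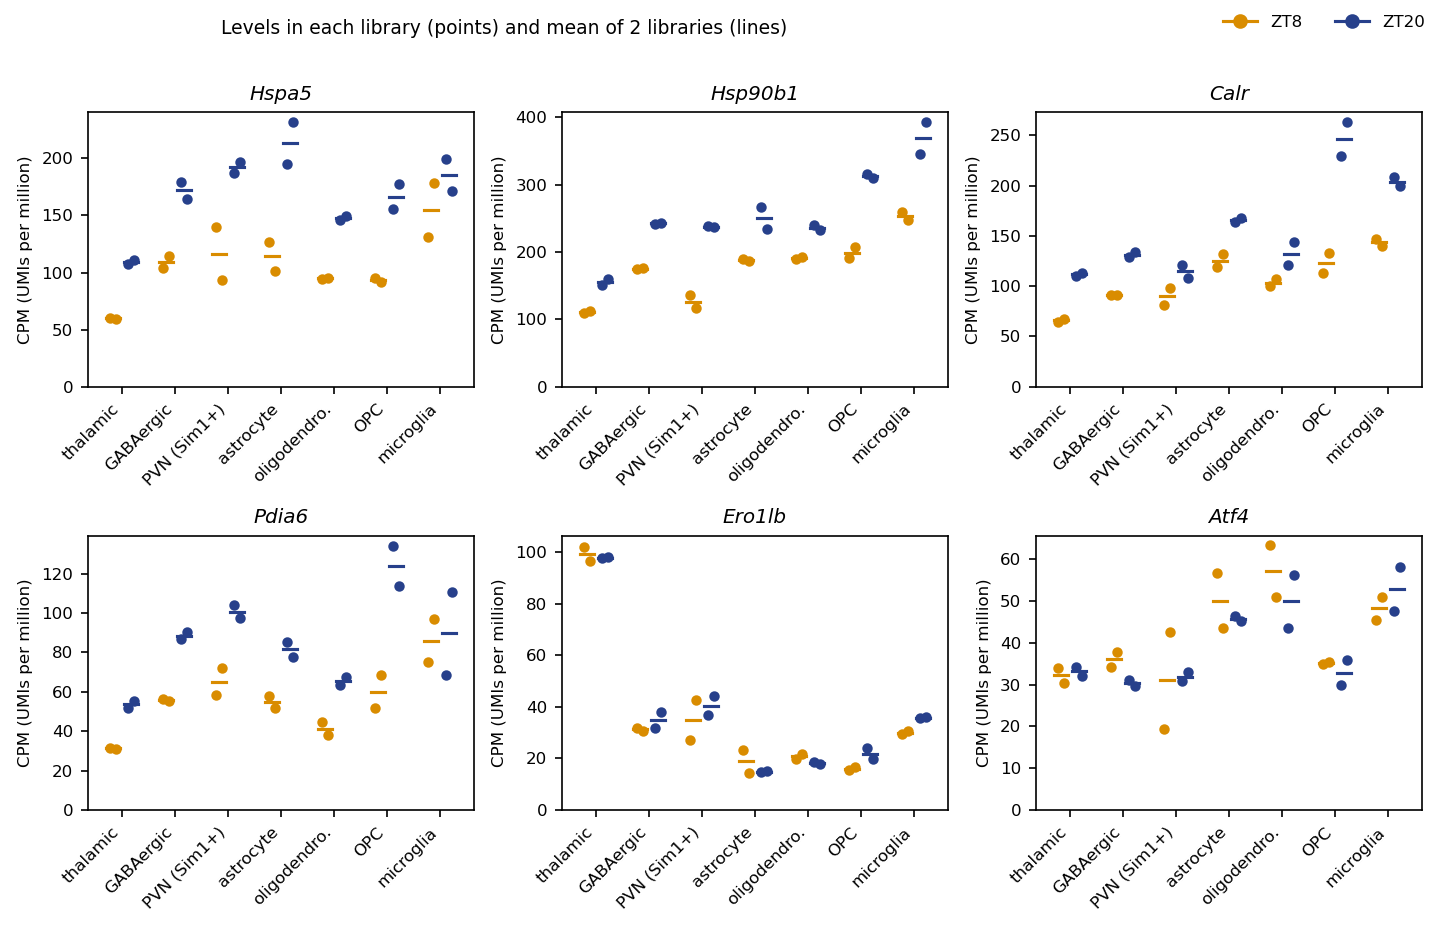
Level in CPM (vertical axes from 0) of 4 genes that rose in most classes and of Ero1lb and Atf4, by nucleus class; points are single libraries, orange for ZT8 and blue for ZT20, and lines are means of 2 libraries. Hspa5, Hsp90b1, Calr and Pdia6 have both ZT20 points above both ZT8 points in each of the 7 classes drawn, except Hspa5 and Pdia6 in microglia-like nuclei, where the points overlap; Ero1lb is highest in thalamic-like neurons at either time, and Atf4 shows no common direction.

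Other measures moved with time in the glial classes as well, and their part in the results was not tested. Neuron types differed in number between the times, and so did tanycyte-like nuclei, with 1 and 1 at ZT8 and 89 and 93 at ZT20. Glial classes were not matched for such a difference in tissue, and its part was not tested either. In astrocyte-like nuclei the summed ribosomal protein level was 7854 and 7532 CPM at ZT8 and 10026 and 10388 CPM at ZT20, and in oligodendrocyte-like nuclei 9287 and 9392 against 12386 and 12769 CPM. The summed level of 10 peptide hormone genes, made by neurons, was 74.0 and 80.3 CPM in astrocyte-like nuclei at ZT8 and 491 and 503 CPM at ZT20, and 82.3 and 97.3 against 753 and 621 CPM in oligodendrocyte-like nuclei, with none of the 10 at 0. In OPC-like nuclei this sum was 39.98 and 69.5 CPM at ZT8 and 372 and 353 CPM at ZT20. A list of 10 other neuronal genes went the other way in astrocyte-like nuclei, from 2926 and 3113 to 2467 and 2309 CPM. Among barcodes of unnamed clusters, 1530 and 1678 held under 2000 UMIs each in the ZT8 libraries, against 3100 and 4191 for ZT20. In these barcodes Hspa5 stood at 275 and 246 CPM at ZT8 and 417 and 393 CPM at ZT20, above its level in every tested class at the same time.

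The size of the change was compared between classes with a class by time term. Of 36 genes, 3 changed more in neuron-like than in oligodendrocyte-like nuclei and 0 less (1 at an unadjusted p under 0.05), where 2.53% and 1.65% of all genes did. They were Canx (difference in log2 change 0.32 ± 0.08, edgeR adjusted p = 0.00389), Hsp90b1 (0.31 ± 0.08, 0.0045) and Calr (0.31 ± 0.10, 0.0488). Against astrocyte-like nuclei, 1 of 35 genes changed less in neuron-like nuclei, Dnajb11 (-0.80 ± 0.23, edgeR adjusted p = 0.0214), and 0 changed more (1 at an unadjusted p under 0.05), where 1.53% and 1.56% of all genes did. Within neurons, Hspa5 (-0.23 ± 0.07, edgeR adjusted p = 0.0351) and Calr (-0.25 ± 0.07, 0.0133) changed less in GABAergic-like than in thalamic-like neurons, 2 of 35 genes, with 0 changing more (2 at an unadjusted p under 0.05), where 3.73% and 3.26% of all genes did. None of these 6 differences was called in every fit that left out 1 library. DESeq2 was not run on these terms.

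Apart from time, the genes differed in level between classes. On the CPM scale, more of them were called lower than higher in neuron-like nuclei against each of 5 other classes, whereas over all genes more were called higher. Against oligodendrocyte-like nuclei 3 of 36 were higher and 21 lower, where 39.2% and 30.8% of all genes were, and against astrocyte-like nuclei 6 and 16 of 35, where 35.6% and 27.9% were. Against OPC-like nuclei 3 were higher and 15 lower of 35 (27.4% and 20.6% of all genes), against microglia-like nuclei 6 and 13 of 35 (32.2% and 21.3%), and against endothelial-like nuclei 3 and 12 of 36 (28.0% and 21.9%). Sec61b was lower in neuron-like nuclei against all 5, with log2 differences from -0.75 to -2.55. Edem1 was lower than in microglia-like nuclei by a log2 difference of -2.68 ± 0.16 and than in oligodendrocyte-like nuclei by -1.78 ± 0.10, and Dnajc3 was lower than in astrocyte-like nuclei by -1.44 ± 0.08. Ero1lb was higher in neuron-like nuclei than in each of the 5 other classes by log2 differences of 1.60 to 2.21, and Ero1l than in 4 of them by 0.21 to 0.97. In ZT8 replicate 1 the median UMIs per nucleus were 13268.5 in neuron-like, 3678 in astrocyte-like and 2842 in oligodendrocyte-like nuclei. Summed ribosomal protein RNA in that library was 3385 CPM in neuron-like nuclei and 5984 to 24819 CPM in the 5 other classes. The part of either in these levels was not tested.

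**Figure D5:**
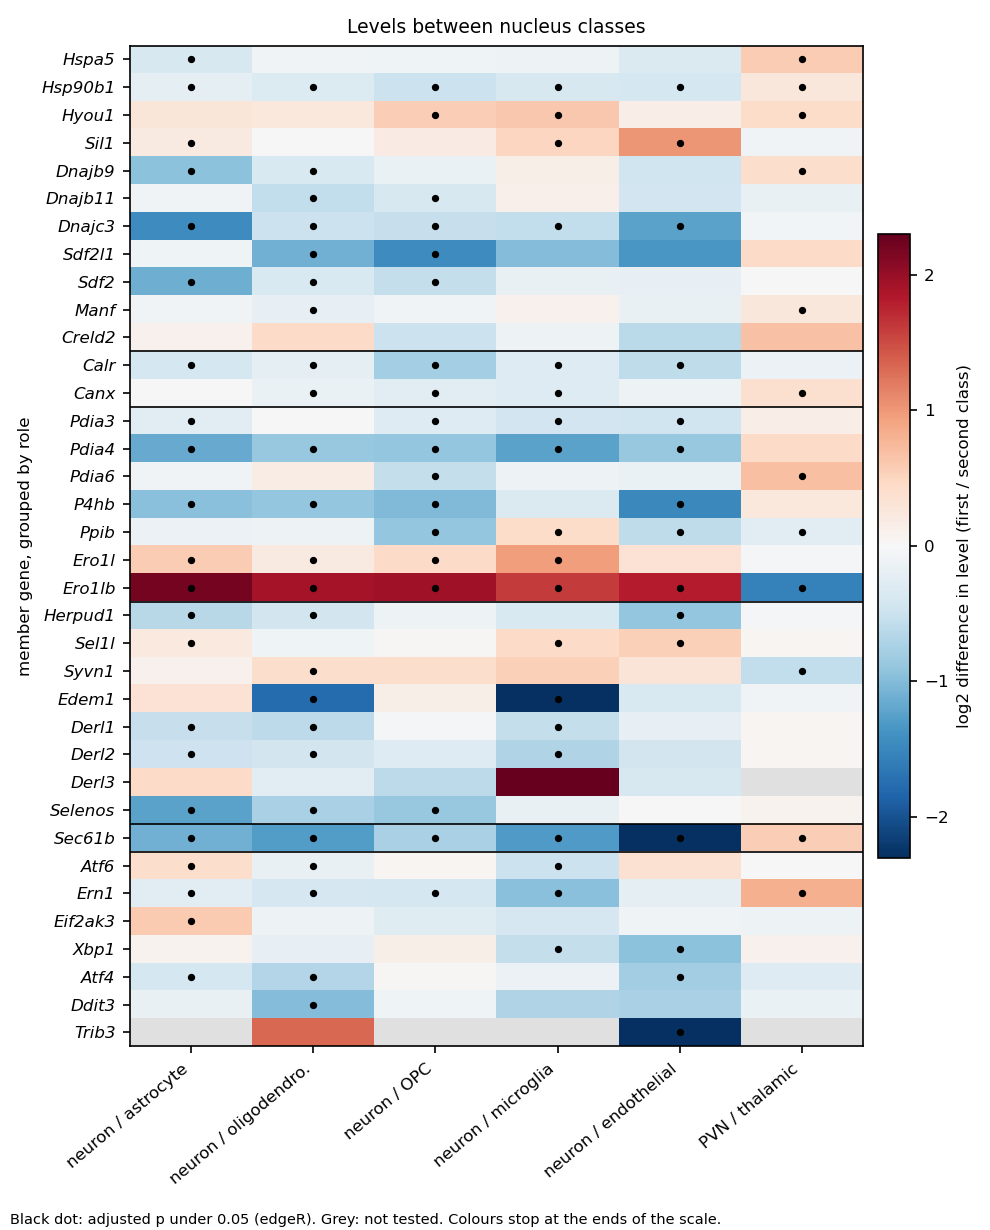
Log2 difference in level of each gene (colour) between neuron-like nuclei and 5 other classes, and in the last column between Sim1-positive PVN-like and thalamic-like neurons; black dots mark an adjusted p under 0.05, grey marks genes not tested. The Ero1lb row is red in the first 5 columns and blue in the last, and in each of those 5 columns more dots lie on blue than on red.

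Levels were also compared between PVN-like and thalamic-like neurons. The PVN-like class held 2 neuron clusters, one of 60 nuclei led by Oxt, Avp and Sim1 and one of 364 nuclei led by Sim1. The latter scored slightly higher on lateral hypothalamic markers, of which 2 were detected, than on PVN markers, of which 7 were. The class's summed level of 9 PVN markers was 1556 to 2487 CPM per library, against 542 to 723 CPM in thalamic-like neurons. Their summed level of 8 thalamic markers was 1487 to 1948 CPM, against 8068 to 8414 CPM in thalamic-like neurons. Between the classes 9 of 34 genes were higher in PVN-like neurons and 3 lower, where 18.3% and 19.9% of all genes were. The share of higher genes was thus not far from that of all genes, and the share of lower genes was below it. Ern1, the gene of IRE1, stood at 42.7, 42.6, 39.9 and 46.4 CPM in the 4 libraries of PVN-like neurons and at 21.7, 20.1, 19.8 and 20.9 CPM in thalamic-like neurons (ZT8 libraries first), from 11, 16, 101 and 100 UMIs in the former. The classes did not overlap in any library, and the log2 difference was 0.82 ± 0.14 (edgeR adjusted p = 2e-08). Pdia6 (0.69 ± 0.10), Hspa5 (0.58 ± 0.09), Sec61b (0.56 ± 0.23), Hyou1 (0.43 ± 0.15), Dnajb9 (0.41 ± 0.15), Canx (0.37 ± 0.08), Manf (0.27 ± 0.10) and Hsp90b1 (0.25 ± 0.08) were higher in PVN-like neurons as well.

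Ero1lb was lower in PVN-like neurons, at 27.2, 42.6, 36.7 and 44.1 CPM against 102, 96.9, 97.8 and 98.1 CPM, with no overlap (log2 difference -1.56 ± 0.11). Syvn1 (-0.57 ± 0.16) and Ppib (-0.25 ± 0.10) were lower too. Since few PVN-like nuclei came from ZT8, the comparison was repeated in the ZT20 libraries, where it rests on 1 time: Ern1 differed by 0.83 ± 0.13, Pdia6 by 0.67 ± 0.09, Hspa5 by 0.57 ± 0.07 and Ero1lb by -1.53 ± 0.10, and Calr (-0.21 ± 0.08) and Atf4 (-0.31 ± 0.13) were called lower in addition. Hspa5, Canx, Pdia6, Ern1 and Ero1lb were called in every fit that left out 1 library. The median UMIs per nucleus ran from 11246 to 13038 in PVN-like and from 16758 to 18205 in thalamic-like neurons. With nuclei thinned to 5000 UMIs each, 8 of the 12 calls between these classes were kept and 4 were lost. In the PVN-like neurons Hspa5 measured 139.7 and 93.1 CPM in the ZT8 libraries, from 36 and 35 UMIs, and 187 and 197 CPM at ZT20, with no test because fewer than 50 nuclei stood behind each ZT8 value.

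Across 45 neuron clusters of at least 50 nuclei, pooled over libraries, Hspa5 ranged from 50.6 to 209.5 CPM, and the 11 thalamic-like clusters all fell among the 14 lowest. The genes most like it in level over these clusters were Hsp90b1 (Pearson r = 0.94), Ssr1 (0.92), a subunit of the translocon-associated complex, Pdia6 (0.92), Lrpap1 (0.91), an ER chaperone of LDL receptor family proteins, and Rpl24 (0.91), a ribosomal protein. Ero1lb ran opposite to it (r = -0.65), and Atf4 showed little relation (r = -0.09). These correlations describe 45 clusters that share the same libraries and differ in the share of ZT20 nuclei, so they carry no test.

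Genes around the folding machinery were read from 5 further lists. Of 25 genes of the translocon, signal peptide cleavage and glycosylation, 18 were called higher and 0 lower at ZT20 in neuron-like nuclei, with a median log2 change of 0.18; 0 had an unadjusted p under 0.05 in the lower direction, and DESeq2 called 12 higher and 0 lower. Sec62 (0.33 ± 0.03), Sec61g (0.45 ± 0.04) and Rpn1 (0.40 ± 0.04), 2 genes of protein entry into the ER and 1 of the oligosaccharyl transferase, had the smallest p. With equal nuclei per cluster 14 of 25 were called higher and 0 lower. Of all genes, 21.9% were called higher and 21.5% lower in neuron-like nuclei, and 11.2% and 9.37% with equal nuclei per cluster. In astrocyte-like and in oligodendrocyte-like nuclei 2 of 25 were called higher each and 0 lower, where 4.1% and 5.63% of all genes were higher. DESeq2 called 0 in both, and 0 and 2 of the 25 had an unadjusted p under 0.05 in the lower direction with edgeR. Of 28 other oxidoreductase, foldase and degradation genes, 7 rose and 4 fell in neuron-like nuclei, close to and below the 21.9% and 21.5% of all genes. Fkbp2, a prolyl isomerase (0.38 ± 0.04), Tmx4, a membrane oxidoreductase (0.31 ± 0.02), and Erlec1, a lectin of ER degradation (0.20 ± 0.03), rose, and Nploc4, a cofactor of the extraction ATPase (-0.25 ± 0.04), Pdia5, a disulfide isomerase (-0.29 ± 0.06), and Dnajc10, a reductase with a J-domain (-0.12 ± 0.03), fell. The Pdia5 change was -0.01 with equal nuclei per cluster and not called.

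PERK and ATF4 targets gave no common direction. Of 23 tested in neuron-like nuclei 1 was called higher, Nars (0.19 ± 0.03), and 2 lower, Cebpg (-0.27 ± 0.05) and Aars (-0.20 ± 0.04). Both shares lay below the 21.9% and 21.5% of all genes, and the median log2 change was -0.06. With equal nuclei per cluster 2 of 22 were higher and 0 lower, where 11.2% and 9.37% of all genes were. Of 24 genes of ER to Golgi transport and KDEL receptors, which return chaperones to the ER, 8 were called higher and 5 lower, not far from the 21.9% and 21.5% of all genes. Tmed3 (0.55 ± 0.09), Tmed2 (0.30 ± 0.04) and Lman2 (0.28 ± 0.06), cargo receptors, rose, and the COPII coat genes Sec24a (-0.21 ± 0.03), Sec23b (-0.18 ± 0.05) and Sec23a (-0.14 ± 0.03) fell. Among 6 membrane-bound transcription factors and their proteases, Creb3l1 rose in neuron-like nuclei by 1.41 ± 0.24 on the log2 scale, which was 0.56 and not called with equal nuclei per cluster, and Mbtps1, the protease that first cuts ATF6 (-0.12 ± 0.04), and Atf6b (-0.19 ± 0.06) fell.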

How the data were processed

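Single-nucleus RNA was measured in 4 libraries, 2 at each time. The deposited files are matrices of UMI counts per gene and barcode, made with Cell Ranger 7.0.0 per the file headers, with STAR 2.6 and mm10 per the submitters' processing notes. The handling of intronic reads and the calling of barcodes are not given in the sources used here. Barcodes under 500 genes, or over 5% in mitochondrial UMIs, were dropped. The automatic Scrublet threshold made 0 or 1 call per library, so the highest scores were removed at 0.8% per 1000 barcodes. Clustering used scanpy 1.11.5 and Leiden, and clusters were named from marker lists. For each class, counts were added up within a library and tested with edgeR 4.0.16 (quasi-likelihood, TMM, filterByExpr, Benjamini-Hochberg over all genes). Classes needed at least 50 nuclei in each library, except in the comparison of PVN-like with thalamic-like neurons, which needed at least 10. DESeq2 1.42.0, other normalizations and filters, equal nuclei per neuron cluster, thinned counts, a replicate block and leaving out each library were alternatives. Thinning drew 5000 UMIs from each PVN-like and thalamic-like nucleus that held at least that many. The 36 genes and all lists were chosen with earlier results of these data known. Genes were named if called in a main class, and from each other list up to 3 per direction with the smallest p. A test on simulated data had 19584 genes as in neuron-like nuclei. Of 50 genes changed at each size, 27 were recovered at 1.25-fold, 31 at 1.5-fold, 39 at 2-fold and 48 at 4-fold. The 21 false calls were a larger share of all calls than an adjusted p under 0.05 aims at. UMIs remove amplification copies, and SEs cover the spread between libraries only. Within a time, libraries differed beyond sampling noise (chi-square per gene 1.64 and 1.63 in neuron-like nuclei) and were counted separately. CPM was computed from the deposited counts. Promoters came from RefSeq (GRCm38.p6).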

Additional observations from a re-analysis of the deposited data

Results flagged for a closer look

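These 6 differences between classes in the change from ZT8 to ZT20 passed a class by time test in edgeR. In neuron-like minus oligodendrocyte-like nuclei they were Calr at 0.3094 (edgeR adjusted p = 0.0488), Hsp90b1 at 0.3083 (0.0045) and Canx at 0.3204 (0.00389) on the log2 scale. In neuron-like minus astrocyte-like nuclei it was Dnajb11 at -0.8048 (edgeR adjusted p = 0.0214). In GABAergic-like minus thalamic-like neurons they were Hspa5 at -0.231 (edgeR adjusted p = 0.0351) and Calr at -0.2521 (0.0133). Each lost its call in at least 1 fit that left out a library.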

How the results depend on the processing

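DESeq2 called fewer of the 36 genes: 3 lower in neuron-like nuclei, 12 higher and 0 lower in thalamic-like neurons, 5 higher in GABAergic-like neurons, and 3, 2 and 1 higher in astrocyte-like, oligodendrocyte-like and OPC-like nuclei. With equal nuclei per neuron cluster 1 gene was lower in neuron-like and 1 in GABAergic-like nuclei, and Ern1 in neuron-like nuclei turned to -0.0065 (edgeR adjusted p = 0.96); the cause was not tested. Without a filter 1 gene was higher in microglia-like nuclei. Genes higher in neuron-like than in oligodendrocyte-like nuclei numbered 5 without a filter and 5 with RLE factors, and those higher than in microglia-like nuclei 2 with upper-quartile normalization. In ZT20 libraries alone 5 genes were lower in PVN-like than in thalamic-like neurons. Among the other lists, in alternatives chosen after seeing the data, equal nuclei gave 4 higher other oxidoreductase genes and 2 higher and 0 lower PERK targets. They also gave 3 higher and 2 lower transport genes, and 0 higher and 1 lower membrane-bound factors. Of all genes, 11.2% were called higher and 9.37% lower in neuron-like nuclei with equal nuclei per cluster. DESeq2, also chosen after seeing the data, gave 2 lower transport genes and 0 lower membrane-bound factors.

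Leaving out each library in turn gave 1 to 3 lower genes in thalamic-like and 0 to 1 in GABAergic-like neurons, 7 to 15 lower in neuron-like than in endothelial-like nuclei (7 without ZT8 replicate 1), and 4 to 10 higher and 1 to 4 lower in PVN-like than in thalamic-like neurons (4 and 1 without ZT20 replicate 1, 1 lower without ZT20 replicate 2). Class by time differences numbered 0 to 1 against oligodendrocyte-like nuclei, 0 in every such fit against astrocyte-like nuclei, and 0 to 2 between GABAergic-like and thalamic-like neurons. Higher transport genes numbered 5 to 8 and lower membrane-bound factors 1 to 2.

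Counts over all genes also fell under DESeq2: from 8504 to 5052 in neuron-like nuclei, 3418 to 1169 in thalamic-like and 2719 to 893 in GABAergic-like neurons, 805 to 163 in astrocyte-like, 1283 to 351 in oligodendrocyte-like, 157 to 8 in OPC-like, 73 to 3 in microglia-like and 286 to 34 in endothelial-like nuclei. Equal nuclei per cluster gave 3749 in neuron-like nuclei and 685 in GABAergic-like neurons. The stricter nucleus filter gave 2 in endothelial-like nuclei, no filter on low counts 115 in microglia-like nuclei and the replicate block 114 there. Leaving out 1 library gave as few as 479 in astrocyte-like, 742 in oligodendrocyte-like, 50 in OPC-like and 138 in endothelial-like nuclei, and 35 to 160 in microglia-like nuclei.

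The labels do not say if same-numbered libraries share a day or batch. Deviations of same-numbered libraries from their time means had a correlation of -0.0164 in neuron-like nuclei. With 1 such difference per time, this value cannot decide the question. With the replicate number as a block, 94 of 94 single-gene calls compared kept direction and call. Over all alternatives 1291 of 1455 single-gene values did, 163 lost the call and 1 changed sign. A class of glutamatergic neurons outside the thalamic-like ones was not run, since no cluster reached its marker score.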
